A study of Mus musculus with 8 samples.

Results

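The genes described here encode the proteins of the cytosolic ribosome, measured by RNA-seq in the pancreas of mice with and without the transcription factor Bach2. Members were the protein-coding genes whose symbol is Rpl or Rps followed by a number and at most a short suffix, together with Rplp0, Rplp1, Rplp2, Rpsa and Rps27rt, and kinase names were left out. The rule found 81 of the 21434 genes in the table, 48 of the large subunit (Rpl) and 33 of the small subunit (Rps). Expression values were not used to choose them. Fau, Rack1 and Rpl36al, whose names differ, were read apart.

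The samples were pancreata of 4 Bach2KO mice and 4 Bach2WT mice, all 18 weeks old and untreated, with 2 females (mice 1 and 2) and 2 males (mice 3 and 4) per genotype. Bach2KO mice were homozygous for the allele Bach2tm1b(EUCOMM)Wtsi on the C57BL/6N background, a global knockout made by Cre-mediated excision. Bach2WT mice were wild-type animals of the same strain. Each library came from 1 mouse and held between 72299745 and 172029360 counts on genes. The 28 digestive enzyme genes that mark acinar cells took 82.7% to 85.4% of the counts in every library. Bach2 itself had 3 to 31 counts per library and was not tested, so it could not check the genotype labels. In bulk tissue, fewer cells of a type and less RNA per cell cannot be told apart.

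Ribosomal proteins and ribosomal RNA form the small subunit, which reads the mRNA, and the large subunit, which joins amino acids into protein. Most of these proteins are needed in about equal number, and cells hold their mRNAs under shared control. Many of these mRNAs carry a pyrimidine tract at the very start of the transcript. Through it, the growth-sensing kinase mTOR and the protein Larp1 set their translation. Acinar cells of the pancreas make more secreted protein than almost any other cell and are densely packed with ribosomes.

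Windows of 30 bases around the annotated transcript start, 15 before it and 15 from it onward, are shown for the members singled out below by the genotype comparison, to let the pyrimidine tract be seen beside the values. They are RefSeq sequences of the build GRCm38.p6, read 5′ to 3′ on the strand of the gene, and capitals mark each run of at least 5 bases that begins with C and goes on with C or T only. Rps27a and Rpl17 have no entry in the table used.
Rps24, first of 2 entries (chr14:24490663-24490692, plus strand): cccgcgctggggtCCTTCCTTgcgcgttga
Rpl5 (chr5:107900513-107900542, plus strand): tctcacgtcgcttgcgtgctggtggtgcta
Rpl31 (chr1:39367836-39367865, plus strand): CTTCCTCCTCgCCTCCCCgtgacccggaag
Rpl23 (chr11:97782425-97782454, minus strand): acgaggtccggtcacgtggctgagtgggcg
Rpl13a (chr7:45128731-45128760, minus strand): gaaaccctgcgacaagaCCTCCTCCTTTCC
Rpl41 (chr10:128549154-128549183, minus strand): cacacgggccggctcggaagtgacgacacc
Rps26 (chr10:128626492-128626521, minus strand): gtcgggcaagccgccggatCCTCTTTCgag
Of these 7 windows, 4 held such a run and 3 did not, and both kinds occurred among members with higher and with lower values in Bach2KO mice.

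Over all members, 61 of 81 had an entry in the promoter table. A C followed by at least 4 pyrimidines stood exactly at the annotated start in 14 of the 61 (23.0%), 7 of 36 Rpl and 7 of 25 Rps genes, against 3.01% of all 27025 genes in the table. Anywhere in the 30-base window it was found in 41 members (67.2%) against 40.3% of all genes, and its reverse complement in 17 members (27.9%) against 44.6%. A run counts for both places where it begins at the start. The 13 tested members with the run at the start had a median log2 fold change of −0.07 between the genotypes, and the 46 without it a median of −0.11. These medians are a description, and the windows depend on the annotated start.

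Per length, the counts on ribosomal protein genes spanned a wide range in the pancreas. Counts on the rows of their pseudogenes are not part of these levels. Such rows held 99.9% of the counts of the Rps10 family and 65.5% of those of Rpl17, so a low level can also reflect where reads were counted. Levels are given as FPKM, the deposited counts divided by a size factor per library and by gene length. The median in Bach2WT mice was 91.1 FPKM over the 48 Rpl genes and 127 FPKM over the 33 Rps genes. Highest of the large subunit were Rplp1, an acidic protein of the stalk that recruits elongation factors, at 1436 ± 342 FPKM (SD, n = 4), Rpl41, which encodes the shortest protein of the ribosome, at 1254 ± 243 FPKM, and Rplp0, the base of the stalk, at 684 ± 154 FPKM. The ranges of Rplp1 (1054 to 1872 FPKM) and Rpl41 (953 to 1527 FPKM) overlapped in Bach2WT mice, but Rplp1 was above Rpl41 within every mouse. The highest Rps genes were Rps15 at 545 ± 111 FPKM, Rps2 at 427 ± 119 FPKM and Rps14 at 369 ± 117 FPKM. Their ranges overlapped between mice, but the order was the same within every mouse of both genotypes.

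**Figure D1:**
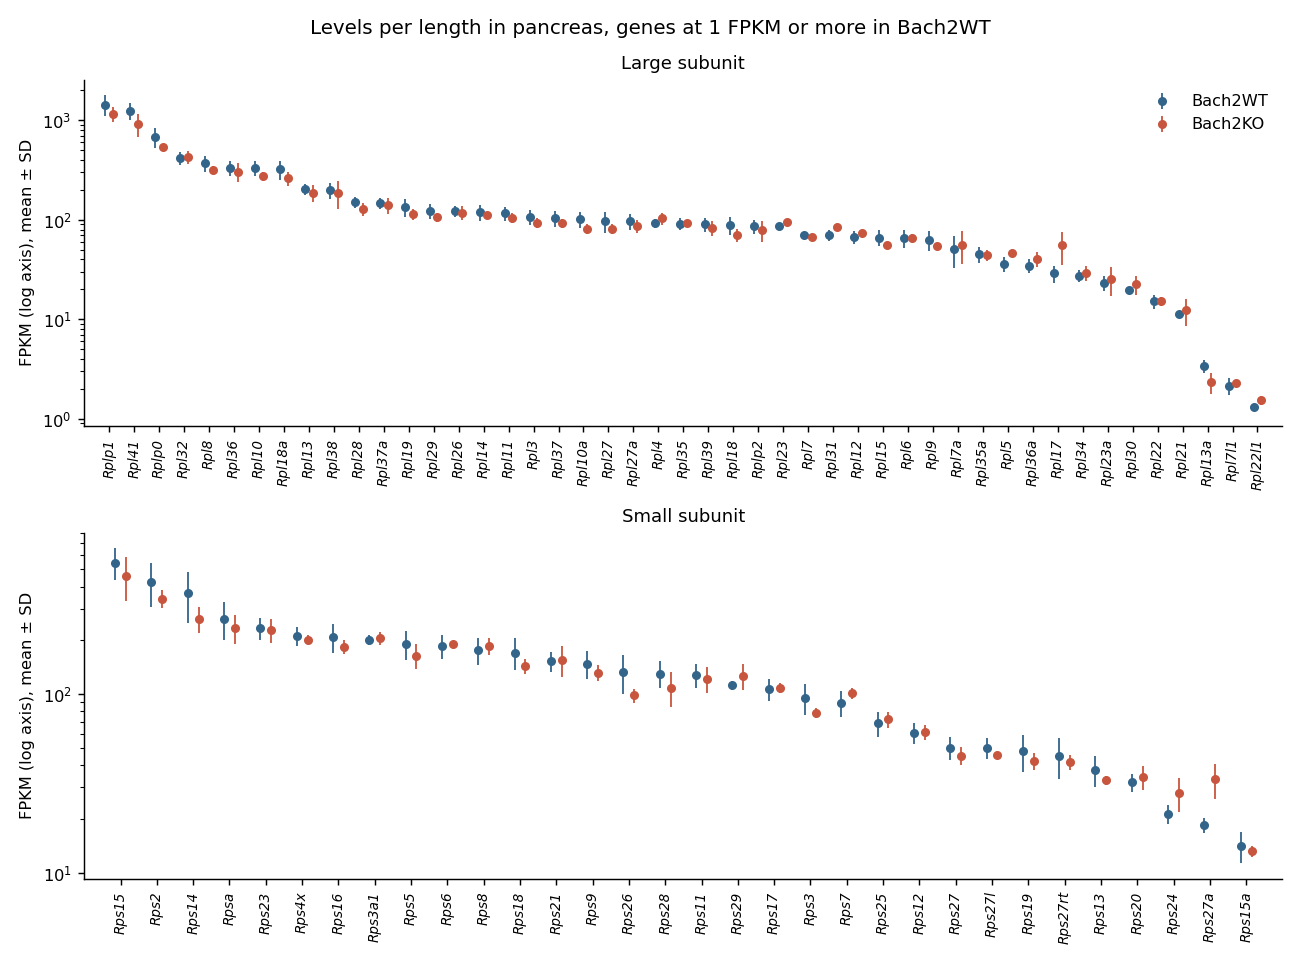
Levels of ribosomal protein genes in FPKM (log axis), ordered by the mean in Bach2WT mice, with the large subunit above and the small subunit below. Points are means and bars SD over 4 mice per genotype; Rpl17, Rps27a and Rps24 stand higher in Bach2KO mice in this plot, whereas Rplp1, Rpl41 and Rps14 stand lower. Counts on pseudogene rows are not included.

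The lowest members included several paralogs. Rpl3l, the muscle paralog of Rpl3, had 22 counts over the 8 libraries, and Rps10 had 83. Both were left untested. Rpl22l1, a paralog of Rpl22, had 1.33 ± 0.1002 FPKM in Bach2WT and 1.54 ± 0.167 FPKM in Bach2KO mice, which was 8.96% ± 1.99 and 10.2% ± 1.98 of the Rpl22 level in the same libraries. Rpl7l1, a relative of Rpl7 that acts in the assembly of the large subunit, had 2.16 ± 0.423 FPKM and 2.32 ± 0.125 FPKM. Rpl13a stood at 3.39 ± 0.476 FPKM in Bach2WT mice, the lowest of the Rpl genes that are not paralogs. Rps15a (14.1 ± 2.78 FPKM), Rps27a (18.4 ± 1.85 FPKM) and Rps24 (21.3 ± 2.51 FPKM) were the lowest tested Rps genes. The gene models behind these lengths include every exon of every transcript, and those of Rps15a and Rps24 were 6270 and 6256 bases long. Per kilobase of longest coding sequence, Rps15a moved from rank 32 to rank 27 and Rps24 from rank 30 to rank 22 of 33, while Rps27a stayed at rank 31. At the top, Rps14 moved from rank 3 to rank 1, Rps2 from rank 2 to rank 5 and Rps15 from rank 1 to rank 6. Rpl41 moved above Rplp1, and Rplp0 stayed at rank 3. Which genes are highest thus depends on the length used. The rank correlation of both orders was 0.84 over the 48 Rpl and 0.77 over the 33 Rps genes, which share libraries and counts.

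The comparison of the genotypes asked whether ribosomal protein mRNAs differ in the pancreas of Bach2KO mice. No member passed the adjusted threshold in edgeR: of 79 tested members, 0 were under 0.05 after Benjamini-Hochberg adjustment, against 0.0078% of the 12820 genes tested in the higher and 0% in the lower direction. DESeq2 on the same counts gave 2 members (2.53%), Rps27a and Rpl17, both higher, against 0.297% of genes higher and 0.156% lower. At an unadjusted p-value under 0.05, 4 members were higher (Rps27a, Rpl17, Rps24 and Rpl5; 5.06% of the members against 3.9% of all genes) and 3 were lower (Rpl13a, Rpl41 and Rps26; 3.8% against 3.56%). The 4 values of each genotype did not overlap for 5 members that were higher in Bach2KO mice (6.33% against 2.57%) and 1 that was lower (1.27% against 1.92%). The shares at an unadjusted p under 0.05 and the share without overlap that was lower were near the background. The share without overlap that was higher and the DESeq2 share rested on 5 and 2 members.

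With TMM, most members lay close to no difference. Of 79 log2 fold changes, 62 were within 0.25 of 0 and 76 within 0.5. Of all 12820 genes tested, 5932 were within 0.25 and 9449 within 0.5. The Rpl genes had a median of −0.07, with 18 higher and 29 lower and a range from −0.52 to 0.96. The Rps genes had a median of −0.09, with 12 higher and 20 lower and a range from −0.46 to 0.88. The median standard error of a member was 0.17, smaller than the 0.36 of all genes tested. The median of all genes was 0.048.

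**Figure D2:**
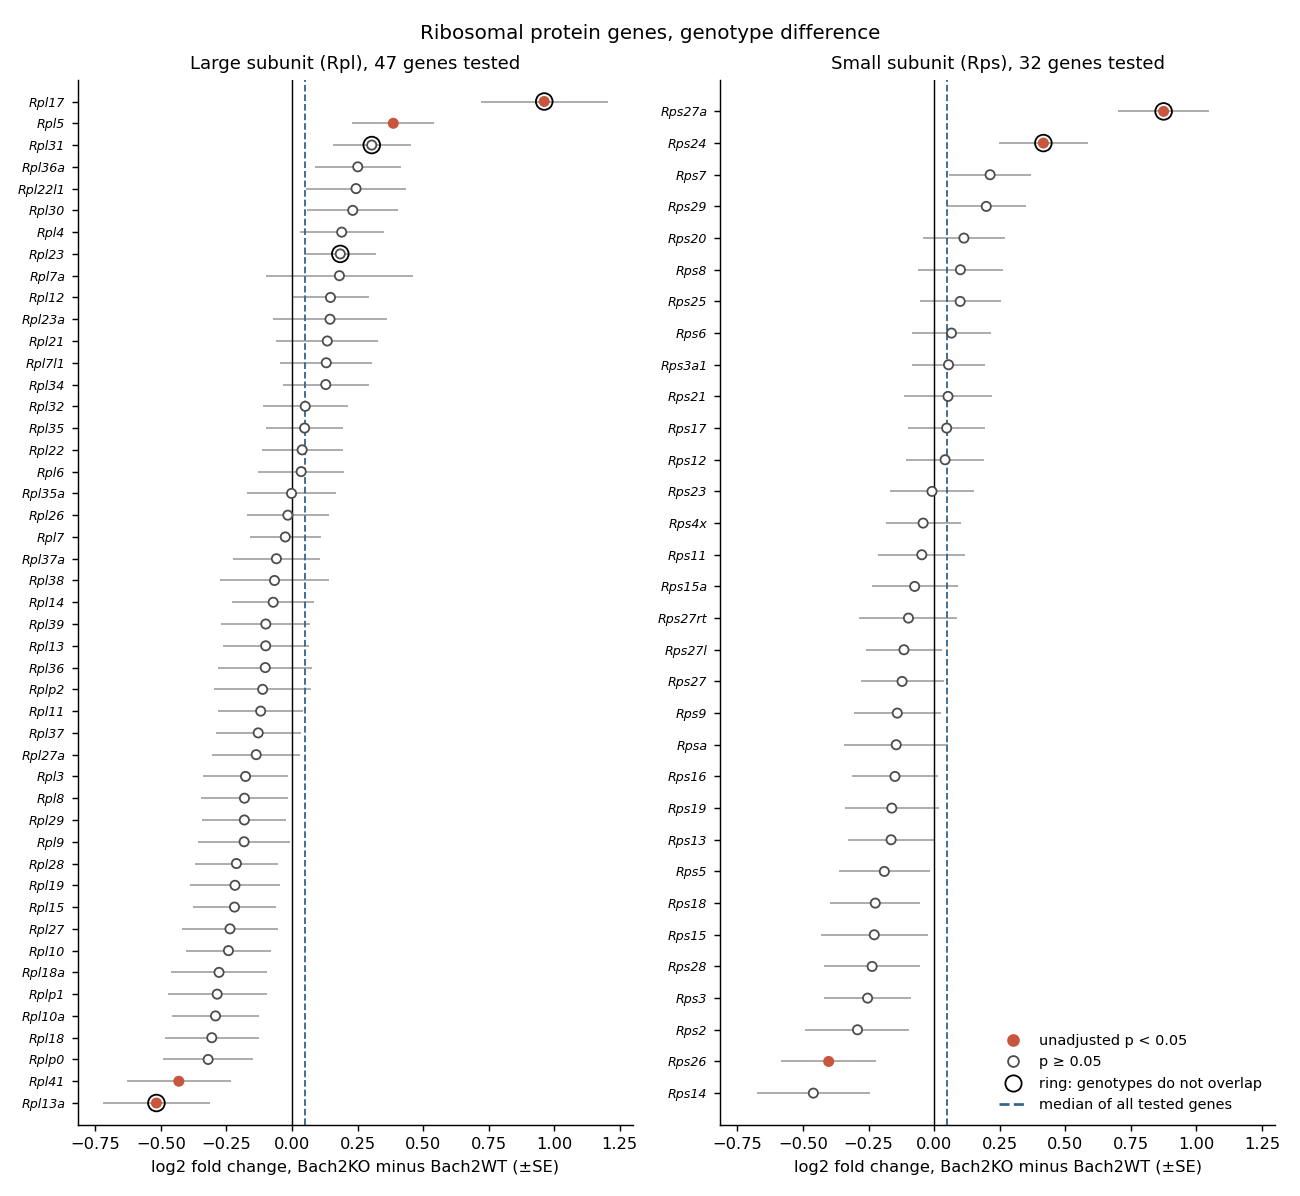
Log2 fold change (Bach2KO minus Bach2WT, edgeR, bars ±SE) of the 47 Rpl and 32 Rps genes tested. Filled points have an unadjusted p-value under 0.05, rings mark genes whose genotypes do not overlap, and the dashed line is the median of all genes tested (0.048); Rpl17 and Rps27a stand apart at 0.96 and 0.88.

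The direction of the whole group depended on the scaling. TMM factors, which set libraries to a common middle gene, lay between 1.047 and 1.18 in Bach2KO and between 0.826 and 1.103 in Bach2WT libraries. With TMM, 30 of 79 members were higher. With raw library sizes 75 were higher, with a median of 0.24, and with the counts outside digestive enzymes as library size 62 were higher, with a median of 0.13. The median of all genes moved along to 0.35 and 0.24 in these fits. At an unadjusted p under 0.05, 29 members were higher with raw library sizes (36.7% against 12.4% of all genes) and 17 with the other library sizes (21.5% against 7.21%). None was lower in either fit, against 0.367% and 0.897% of all genes, and 0 passed after adjustment in edgeR. The members' median minus the median of all genes was −0.12 with TMM, −0.10 with raw library sizes and −0.11 with library sizes outside digestive enzymes. Single libraries moved it more: it was −0.25 without Bach2WT mouse 1, −0.21 without Bach2KO mouse 3, −0.07 without Bach2WT mouse 4, −0.05 without Bach2KO mouse 1 and −0.04 without Bach2WT mouse 2. It was −0.05 with the gene length correction and −0.21 with no filter on low counts. As a share of all counts, members took 1.94% to 2.21% in Bach2KO and 1.70% to 1.94% in Bach2WT libraries, whereas their summed TMM-scaled level was 10776 ± 1068 CPM (counts scaled to the effective library size) against 11992 ± 1840 CPM for Rpl and 7687 ± 733 CPM against 8393 ± 1421 CPM for Rps (SD, n = 4 each). Both sums overlapped between the genotypes. The ratio of summed Rps to summed Rpl signal was 0.704 to 0.722 in Bach2KO and 0.680 to 0.711 in Bach2WT libraries, and these ranges overlapped.

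Rps27a encodes ubiquitin fused to a protein of the small subunit and so supplies both. Rps27a (ENSMUSG00000020460; chromosome 11 of mm39, 29495846 to 29498109, minus strand) had 49.4, 72.7, 64.4 and 83.6 CPM in Bach2KO mice 1 to 4. Its values in Bach2WT mice 1 to 4 were 34.1, 38.8, 40.9 and 33.5 CPM. Every Bach2KO mouse lay above every Bach2WT mouse, in both sexes. The log2 fold change was 0.88 (standard error 0.17, unadjusted p = 2.28e-04, adjusted p = 0.266 in edgeR), and DESeq2 gave an adjusted p of 0.00481. Over all alternatives the adjusted p of Rps27a ran from 0.00481 to 0.614, the highest in edgeR without Bach2WT mouse 2. Over the 8 fits that each left out 1 library, the log2 fold change lay between 0.76 and 1.00, with an unadjusted p under 0.05 in all 8.

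Rpl17 encodes a protein at the exit tunnel of the large subunit. Rpl17 (ENSMUSG00000062328; chromosome 18, 75131629 to 75136452, plus strand) had 47.6, 98.0, 58.0 and 100.2 CPM in Bach2KO mice 1 to 4 and 32.4, 45.0, 45.8 and 32.8 CPM in Bach2WT mice 1 to 4. The genotypes did not overlap, although Bach2KO mouse 1 exceeded the highest Bach2WT mouse by little. The log2 fold change was 0.96 (standard error 0.24, unadjusted p = 0.00154, adjusted p = 0.370 in edgeR), with a DESeq2 adjusted p of 0.0366. Over all alternatives its adjusted p ran from 0.0234 (edgeR with no filter on low counts) to 0.765 (edgeR without Bach2KO mouse 2). The log2 fold change stayed between 0.80 and 1.13 when single libraries were left out, with an unadjusted p under 0.05 in all 8 fits. Rpl17 is also the tested member with the largest share of reads on pseudogenes, and adding those reads took its difference to 0.33.

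Among the members with smaller differences, Rps24, a small-subunit protein needed for the maturation of its ribosomal RNA, had 159, 153, 234 and 175 CPM in Bach2KO mice 1 to 4. Its Bach2WT values were 122, 149, 148 and 121 CPM. The genotypes were separate, with Bach2KO mouse 3 far above the rest. The log2 fold change was 0.42 (standard error 0.17, unadjusted p = 0.0294, adjusted p = 0.637), and it was 0.25 without Bach2KO mouse 3. Rpl5, which binds Mdm2 when ribosome assembly is disturbed, had 206, 185, 187 and 175 CPM against 130, 140, 181 and 127 CPM. Bach2WT mouse 3 lay within the range of the Bach2KO mice. Its log2 fold change was 0.39 (standard error 0.16, unadjusted p = 0.0275, adjusted p = 0.636). The unadjusted p reached 0.05 or more in 3 of 8 fits without 1 library for Rps24 (without Bach2KO mouse 3, Bach2WT mouse 1 or Bach2WT mouse 4) and in 6 of 8 for Rpl5.

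Rpl31 and Rpl23, both of the large subunit, were separate between the genotypes without an unadjusted p under 0.05. Rpl31 had 147, 131, 158 and 145 CPM in Bach2KO mice and 97.4, 131, 127 and 116 CPM in Bach2WT mice. Bach2KO mouse 2 and Bach2WT mouse 2 were almost equal, and the log2 fold change was 0.30 (standard error 0.15, unadjusted p = 0.0611). Rpl23 had 191, 165, 175 and 171 CPM against 146, 165, 165 and 143 CPM. Its log2 fold change was 0.18 (standard error 0.14, unadjusted p = 0.204). Here, too, the lowest Bach2KO value barely exceeded the highest Bach2WT value.

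Lower values in Bach2KO mice were found for Rpl13a, a large-subunit protein that can leave the ribosome after interferon-gamma and then silences inflammatory mRNAs. Rpl13a (ENSMUSG00000074129; chromosome 7, 44774982 to 44778185, minus strand) had 3.37, 5.86, 5.89 and 5.23 CPM in Bach2KO mice 1 to 4 and 6.92, 8.12, 5.99 and 8.05 CPM in Bach2WT mice 1 to 4. It was the only member whose Bach2KO values all lay below the Bach2WT values. The log2 fold change was −0.52 (standard error 0.20, unadjusted p = 0.0242, adjusted p = 0.627 in edgeR). Without Bach2KO mouse 1, the lowest library, it was −0.36 with an unadjusted p of 0.0634, and the unadjusted p also reached 0.05 without Bach2WT mouse 2 or mouse 4.

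Rpl41 had 897, 1077, 1486 and 940 CPM in Bach2KO mice and 1139, 1591, 1406 and 1799 CPM in Bach2WT mice. Bach2KO mouse 3 lay above 2 of the Bach2WT mice, and the log2 fold change was −0.43 (standard error 0.20, unadjusted p = 0.0475). Rps26, a small-subunit protein at the exit channel of the mRNA, had 139, 159, 164 and 165 CPM against 147, 250, 184 and 248 CPM. The difference was −0.40 on the log2 scale (standard error 0.18, unadjusted p = 0.0452). Bach2WT mouse 1 lay among the Bach2KO mice. Rps14, a small-subunit protein, had the lowest log2 fold change of the Rps genes, −0.46 (unadjusted p = 0.0530), and DESeq2 gave it an unadjusted p of 0.0290. For Rpl41 and Rps26, the unadjusted p was under 0.05 in 2 of 8 fits that left out a library.

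**Figure D3:**
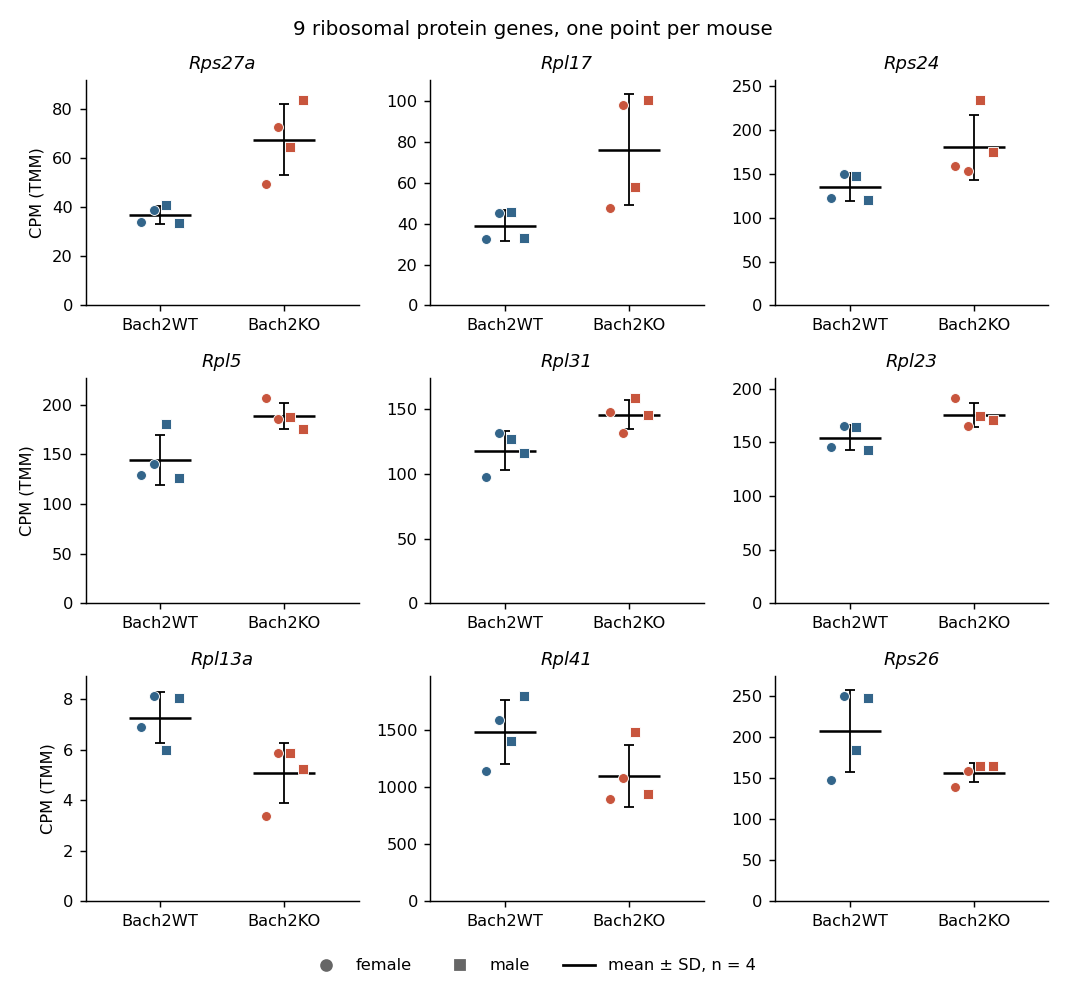
TMM-scaled CPM of the 9 members with an unadjusted p-value under 0.05 or with no overlap between the genotypes, 1 point per mouse (circles female, squares male), with mean and SD over 4 mice. Rps27a is separate by the widest margin (33.5 to 40.9 CPM in Bach2WT, 49.4 to 83.6 CPM in Bach2KO mice), while Rpl31 and Rpl23 nearly touch.

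The P-stalk proteins, which bring elongation factors to the ribosome, were all lower on the log2 scale without an unadjusted p under 0.05: −0.32 for Rplp0, −0.29 for Rplp1 and −0.11 for Rplp2, all 3 above 0 with raw library sizes. Rpsa, a protein of the small subunit that is also known as a laminin receptor, was at −0.14. Among paralogs, Rpl22l1 was at 0.24 and Rpl22 at 0.04, and Rpl7l1 at 0.13 and Rpl7 at −0.03, all with an unadjusted p above 0.05. Rps27, its stress-inducible paralog Rps27l and the retrogene Rps27rt lay at −0.12, −0.12 and −0.10. Per length, Rps27l had 101% ± 15.4 of the Rps27 level in Bach2WT and 102% ± 14.9 in Bach2KO mice, and Rps27rt 89.0% ± 10.8 and 92.8% ± 18.2. Reads could have been shared between Rps27 and Rps27rt, which are near-identical copies. The X-linked members were at −0.04 (Rps4x), −0.24 (Rpl10), 0.25 (Rpl36a) and −0.10 (Rpl39). Rps3a1, the mouse gene of Rps3a, was at 0.05. The genotypes overlapped for each of these genes.

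Ribosomal protein genes have many processed pseudogenes, and 183 pseudogene rows of the table are named for 52 members. They held 3.23% to 3.66% of the counts of members and pseudogenes together in each library, but the share was uneven: over 10% for 13 members and under 5% for 61. For Rps10, pseudogene rows held 60754 counts and the gene itself 83, so that 99.9% of the family's counts lay on pseudogenes. Which of these reads came from Rps10 mRNA was not tested. For Rpl17, 65.5% of the counts were on 7 pseudogene rows, which summed to 91.4 to 125 CPM in Bach2KO and 96.0 to 129 CPM in Bach2WT mice. These rows overlapped between the genotypes, in contrast to the row of Rpl17 itself. With the pseudogene counts added to their members, the log2 fold change of Rpl17 was 0.33 (unadjusted p = 0.0584) and that of Rps27a 0.81 (unadjusted p = 3.08e-04). Rps26 moved from −0.40 to −0.31 (unadjusted p = 0.109). Rpl31, with 14.4% of its counts on 13 pseudogene rows, moved from 0.30 to 0.21. How reads with several matches were counted is not given in the sources used here.

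**Figure D4:**
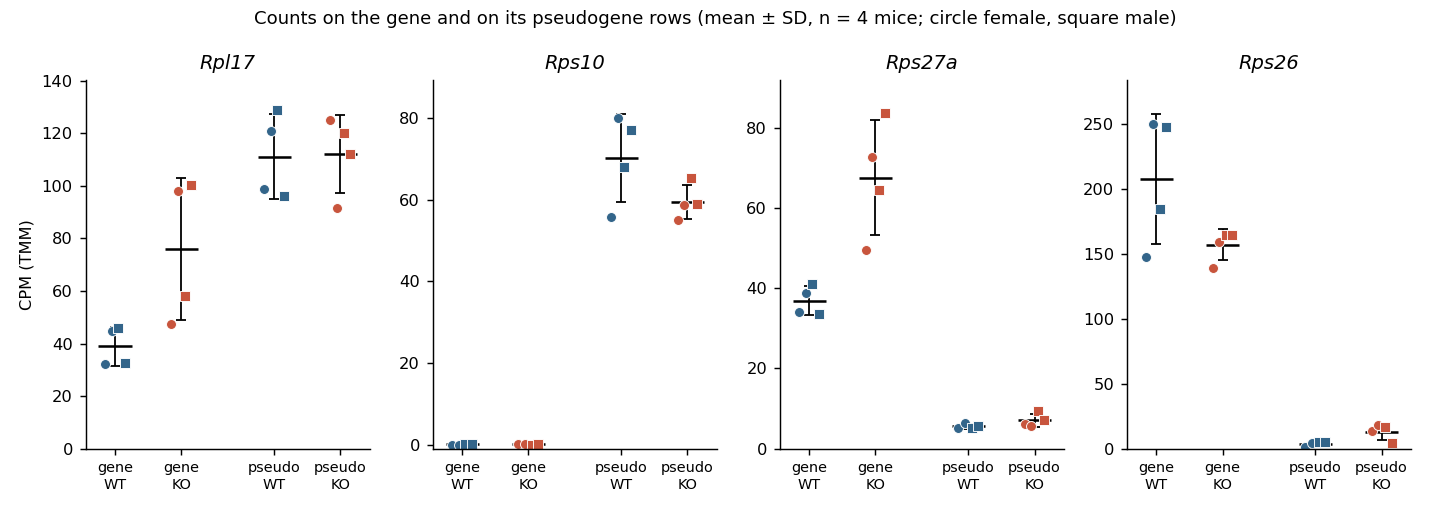
TMM-scaled CPM on the gene and, summed, on its pseudogene rows for Rpl17, Rps10, Rps27a and Rps26, 1 point per mouse (circles female, squares male), with mean and SD over 4 mice of each genotype. Pseudogene rows of Rpl17 overlap between the genotypes while the gene does not, and nearly all Rps10 counts lie on pseudogenes.

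The differences ran with base composition. Transcript GC content of the members ranged from 40.6% to 60.8%. Across the 79 tested members, the log2 fold change had a Pearson correlation of −0.40 with GC content (Spearman −0.43), −0.45 over 47 Rpl and −0.33 over 32 Rps genes, against −0.05 over 12737 genes. Genes of 1 library share depth and composition effects and are not independent replicates. Members were put into 3 bins of GC content. In the bin with the highest GC content, 22 of 26 members were lower, with a median of −0.19. In the middle and lowest bins, 12 of 26 and 15 of 27 were lower, with medians of 0.04 and −0.01. The fold change also ran against the mean level (Pearson −0.38), and GC content and level were themselves correlated across members (0.37). Per library, the slope of the members' deviation on GC content was −0.19, −0.12, 0.04 and −0.19 log2 units per 10% GC in Bach2KO mice 1 to 4 and −0.01, 0.11, 0.06 and 0.29 in Bach2WT mice 1 to 4. Bach2KO mouse 3 overlapped with the Bach2WT mice. Deviations were taken from each member's mean over all 8 libraries, so the mean slopes of the genotypes mirror each other (−0.12 and 0.12). These slopes restate the correlation above. Over all genes the slopes were −0.31, −0.14, 0.32 and 0.05 in Bach2KO mice 1 to 4. In Bach2WT mice 1 to 4 they were −0.15, 0.26, −0.04 and 0.01, which overlapped. With a correction for GC content in each library, the median of the members was −0.07, and Rpl17, Rps27a and Rpl31 were higher (3.8% of members against 4.15% of all genes) and Rpl13a, Rpl41 and Rps26 lower (3.8% against 3.84%) at an unadjusted p under 0.05. Rps24 (unadjusted p = 0.0588) and Rpl5 (unadjusted p = 0.0708) were then no longer among them. The part of composition in the differences was not tested further.

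**Figure D5:**
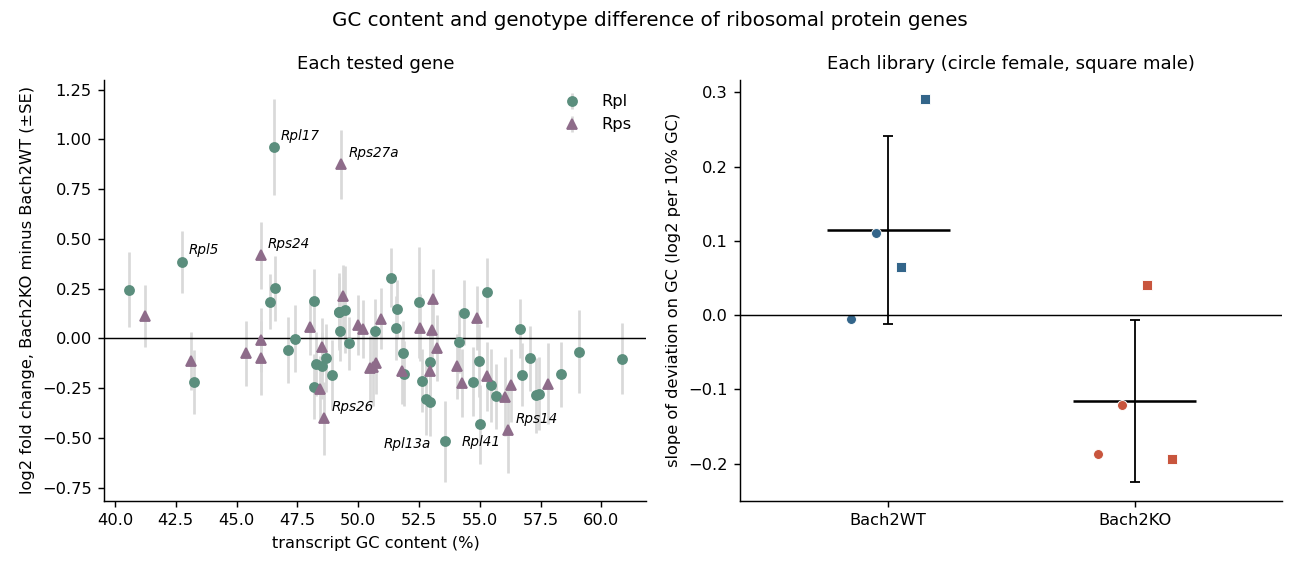
Left, transcript GC content (%) against log2 fold change (bars ±SE) for each tested Rpl (circles) and Rps gene (triangles). Right, slope of the members' log2 deviation on GC content in each library (circles female, squares male; mean and SD over 4 mice), which is below 0 in 3 of 4 Bach2KO and above 0 in 3 of 4 Bach2WT libraries. Deviations are from the mean over all libraries, so the group means mirror each other.

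Single libraries moved the group as a whole. On TMM-scaled values, Bach2WT mouse 1 was the lowest of all 8 libraries for 47 of 79 members and the lowest Bach2WT library for 65. Its summed level was 9385 CPM for Rpl and 6381 CPM for Rps. Its TMM factor was 1.103, against 0.826 to 0.858 in the other Bach2WT libraries. As a share of all counts, members took 1.74% in this mouse and 1.70% in Bach2WT mouse 3. As a share of counts outside digestive enzymes, they took 11.3% in Bach2WT mouse 1, the lowest of the 8 libraries. Bach2KO mouse 3 was the highest Bach2KO library for 57 members. Without Bach2WT mouse 1, 18 members were lower at an unadjusted p under 0.05 (13 Rpl and 5 Rps; 22.8% against 4.79% of all genes in that fit), and the median was −0.18. In the other 7 fits, 0 to 4 members were lower. Without Bach2KO mouse 3 the median was also −0.18, and without Bach2WT mouse 2 it was 0.00. The members added without Bach2WT mouse 1 included Rplp0, Rplp1, Rps2, Rps14 and Rpl10. The adjusted threshold was passed by 0 members in each of the 8 fits.

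Sex was compared in a fit with genotype. Males had the higher value for 42 of 47 Rpl and 30 of 32 Rps genes. The medians were 0.13 and 0.14 on the log2 scale, against −0.03 over all genes. Members moved together by library: on TMM-scaled values, the female Bach2WT mouse 1 was the lowest of all 8 libraries for 47 of 79 members. The male Bach2KO mouse 3 was the highest Bach2KO library for 57. The part of single mice in the sex difference was not tested. No member had an unadjusted p under 0.05 in edgeR, where 5.29% of all genes did, and 0 passed the adjusted threshold, against 0.0312% of all genes. DESeq2 gave 1 member at an unadjusted p under 0.05 (6.38% of all genes) and 0 after adjustment (0.0936% of all genes). The smallest unadjusted p was that of Rps15 (0.0552). In the test of whether the genotype difference depends on sex, with 2 mice per cell, 1 member had an unadjusted p under 0.05 (6.14% of all genes) and 0 passed after adjustment (0% of all genes). It was Rpl23a, at 17.1 and 15.5 CPM in female and 28.2 and 28.3 CPM in male Bach2KO mice, and at 17.1 and 23.6 CPM in female and 17.4 and 22.6 CPM in male Bach2WT mice. The interaction was 0.82 on the log2 scale (unadjusted p = 0.0316, adjusted p = 0.807 in edgeR), and 20.8% of the counts of its family lay on pseudogenes.

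Other genes of translation were read from the same fit. Ribosomal proteins with other symbols had no unadjusted p under 0.05: Rack1, a scaffold on the small subunit, was at −0.25, Fau, a ubiquitin-like fusion, at −0.18, and Rpl36al, at under 1 CPM, at 0.91 with a standard error of 0.61. Of 16 elongation factors and other mRNAs with pyrimidine tracts, 8 were higher and 8 lower (median −0.02), and Pabpc1, the poly(A)-binding protein, was higher at 0.33 (unadjusted p = 0.0469). The elongation factors Eef1a1 and Eef2 were at −0.09 and −0.15. Of 16 genes of initiation factor complexes and their control, 8 were higher and 8 lower (median 0.01), with Eif4ebp2, a repressor of cap binding, at −0.42 (unadjusted p = 0.0379) and Tsc2, an inhibitor upstream of mTOR, at −0.42 (unadjusted p = 0.0499). Of 30 genes of RNA polymerase I and ribosome assembly, which include the member Rpl7l1, 16 were higher and 14 lower (median 0.03), with Ubtf, the factor that opens ribosomal RNA genes, at 0.37 (unadjusted p = 0.0421) and Bop1, an assembly factor of the large subunit, at −0.40 (unadjusted p = 0.0437). At an unadjusted p under 0.05, 3.9% of all genes were higher and 3.56% lower. None of the genes of these lists passed the adjusted threshold, against 0.0078% of all genes higher and 0% lower.

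Markers of other cells were summed per library beside these values. With TMM, the summed level of the acinar list overlapped between the genotypes. Most of its genes were lower in Bach2KO mice under that scaling: 23 of 28, with a median log2 fold change of −0.34. Of the 28, 10 had an unadjusted p under 0.05, all lower, against 3.56% of all genes lower at that p. No overlap was found for 6, all lower, against 1.92% of all genes. After adjustment in edgeR 0 passed, against 0.0078% of all genes higher and 0% lower. As a share of all counts, the acinar list took 82.7% to 84.3% in Bach2KO and 84.1% to 85.4% in Bach2WT libraries. Raw library sizes moved the median of all genes from 0.048 to 0.35, and the acinar genes were not counted in that fit. T cell markers were higher in Bach2KO mice for 7 of 7 genes tested, out of 10 listed, and 0 had an unadjusted p under 0.05. Their sum overlapped (1.12 to 3.59 CPM against 0.292 to 2.55 CPM). Of macrophage markers 6 of 8 were higher, 2 of 8 had an unadjusted p under 0.05, and their sum also overlapped (23.4 to 36.9 CPM against 16.8 to 31.5 CPM). Among all genes tested, 7007 of 12820 were higher. Neutrophil markers, at 0.0726 to 1.07 CPM against 0 to 0.0457 CPM with Ly6g at 0 in all libraries, were the only list without overlap. Islet markers ranged from 217 to 1959 CPM and from 178 to 2255 CPM, with 1959 CPM in Bach2KO mouse 3. Sums of B cell, plasma cell, eosinophil, duct, endothelial, adipocyte, fibroblast, skeletal muscle and red blood cell markers overlapped. Of the genes tested, 4 of 4 endothelial, 4 of 5 plasma cell, 4 of 6 fibroblast and 4 of 6 islet markers were higher. So were 2 of 4 duct, 2 of 4 red blood cell, 1 of 3 adipocyte, 0 of 2 B cell and 0 of 1 skeletal muscle markers. In either direction, 1 endothelial, 1 plasma cell, 1 islet, 1 duct and 1 adipocyte marker had an unadjusted p under 0.05. No fibroblast, red blood cell, B cell or skeletal muscle marker did. Over all genes, 3.9% were higher and 3.56% lower at that p. No eosinophil or neutrophil marker was tested. The part of these cells in the ribosomal protein values was not tested.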

How the data were processed

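Polyadenylated RNA from pancreas of 8 mice was sequenced by a provider as paired-end reads. Per the submitters' processing notes, fastp, HISAT2 2.2.1 and featureCounts 2.0.6 were used with the build mm39. Parameters for strand and for reads with several matches are not given in the sources used here. The authors deposited raw counts per gene, a normalized signal (counts divided by a size factor per library, as deposited) and FPKM values, which the authors made from that signal and gene length. The log2 fold changes and p-values deposited by the authors were not used.

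Counts of all 21434 genes were tested with edgeR 4.0.16 in R 4.3.3 (quasi-likelihood test, TMM, filterByExpr on genotype, no covariate, all 8 libraries). This left 12820 genes. P-values were adjusted by Benjamini-Hochberg over all of them at a threshold of 0.05, and the standard error is the fold change divided by the square root of F. CPM values use TMM factors. Tested members had 2796 to 1166523 counts over all libraries. P-values set the genotype difference against the spread between the mice of a genotype. With no covariate in the fit, that spread includes differences between the sexes. With simulated counts for this comparison (12820 genes, 200 changed by 2 on the log2 scale), 127 were recovered with 8 false calls. The largest difference of a member was 0.96, so this recovery does not apply to differences of the members' size.

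Transcript GC content and coding length were taken from GENCODE M21 by Ensembl identifier (97.2% of genes), for the transcript with the longest coding sequence. Start-site sequences were matched by symbol. Alternatives were DESeq2 1.42.0, RLE factors, other library sizes, other filters on low counts (none, or at least 10 in every library), sex as covariate, the replicate number as a block, gene length and GC corrections (loess, span 0.3), counts divided by 2, pseudogene counts added to members, and leaving out each library. The GC correction, the pseudogene sums, the coding lengths and both scalings without TMM were chosen after seeing the data.

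Members and gene lists were chosen with earlier results of these data known. Named were members with an unadjusted p under 0.05 or without overlap, the 3 highest and 3 lowest levels per subunit, paralogs, P-stalk proteins, Rpsa, Rps27a, X-linked members and members past the adjusted threshold for sex or interaction. Rpl22, Rpl7, Rps27, Rpl7a and Rpl23a, and single genes of the other translation lists, were named after their values were seen. One gene of the other translation lists is not reported here.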

Additional observations from a re-analysis of the deposited data

Results flagged for a closer look

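In the Bach2KO group, Rps15a had 77.8 CPM in mouse 1, below 86.6 to 88.4 CPM in the other 3 mice. The gap was 0.834 of the group's range, just past Dixon's limit for 4 values. Of 72 groups examined in this way, 1 passed the limit, where chance gives about 1 in 20. Outside the members, the pseudogene row Rps26-ps1 was higher in Bach2KO mice by 1.74 on the log2 scale (unadjusted p = 0.00156, adjusted p = 0.370 in edgeR). It had 13.4, 18.2, 16.5 and 4.05 CPM in Bach2KO mice 1 to 4 and 1.37, 4.25, 4.90 and 5.04 CPM in Bach2WT mice 1 to 4, so that Bach2KO mouse 4 lay among the Bach2WT mice. Rps26 itself was lower at −0.40, and the sum of gene and pseudogene rows was at −0.31. Whether these reads belong to the gene or to the pseudogene was not tested.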

How the results depend on the processing

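Over 21 alternatives, 675 of 758 values kept their direction and their side of the threshold or stayed within 1.5 times or 1 SD. Rps27a and Rpl17 passed the adjusted threshold with DESeq2 and without a filter on low counts (2 members each), and 0 members passed under all other alternatives. Over the fits that left out 1 library, the number of members at an unadjusted p under 0.05 was 1 to 2 higher and 0 to 13 lower for Rpl and 1 to 2 higher and 0 to 5 lower for Rps. The largest numbers of lower members, 13 and 5, were those without Bach2WT mouse 1. Lower Rps genes numbered 2 with DESeq2, RLE factors or no filter, and 0 with the gene length correction or with pseudogene counts added. The gene length correction gave 4 higher Rpl genes and 1 higher Rps gene, the GC correction 1 higher Rps gene, and pseudogene counts 1 higher Rpl gene. Under the 19 alternatives other than both scalings without TMM, 2.98% to 5.23% of all genes were higher and 2.15% to 4.91% lower at that p. With raw library sizes, 15 Rpl and 14 Rps genes were higher (together 36.7% against 12.4% of all genes) and 0 of each lower, with medians of 0.24 and 0.24. With library sizes outside digestive enzymes and no TMM factor, 10 and 7 were higher (together 21.5% against 7.21% of all genes) and 0 of each lower, with medians of 0.13 and 0.14.

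Scaling without TMM moved all genes upward, from a median of 0.048 to 0.35 with raw library sizes and to 0.24 with library sizes outside digestive enzymes, and signs near 0 turned with it. Raw library sizes gave log2 fold changes of 0.0041 for Rplp0, 0.033 for Rplp1, 0.20 for Rplp2, 0.18 for Rpsa, 0.034 for Rps2, 0.086 for Rps15, 0.25 for Rps15a, 0.28 for Rpl7, 0.19 for Rps27, 0.19 for Rps27l, 0.23 for Rps27rt, 0.27 for Rps4x, 0.075 for Rpl10 and 0.21 for Rpl39. Library sizes outside digestive enzymes without TMM gave 0.10 for Rplp2, 0.076 for Rpsa, 0.14 for Rps15a, 0.18 for Rpl7, 0.092 for Rps27, 0.089 for Rps27l, 0.13 for Rps27rt, 0.17 for Rps4x and 0.11 for Rpl39. With the gene length correction, Rps27rt was at 0.031 and Rps4x at 0.043. Leaving out a library gave ranges that crossed 0 for Rps15a (−0.19 to 0.038), Rpl22 (−0.053 to 0.10), Rpl7 (−0.074 to 0.015), Rps27rt (−0.23 to 0.0085), Rps4x (−0.12 to 0.0034) and Rps3a1 (−0.011 to 0.096). The cause of the turns with gene length and with single libraries was not tested.

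Same-numbered mice of the 2 genotypes deviated with correlations of 0.21, −0.03, −0.04 and −0.05, so the numbers do not pair the samples. With the replicate number as a block, 0 members passed the adjusted threshold, the same 7 members had an unadjusted p under 0.05, and the median was −0.09 for Rpl and −0.06 for Rps. The order of FPKM levels was the same for 46 of 48 Rpl and 33 of 33 Rps genes with TMM-scaled counts per gene length. Counts were too low to test Rps10 and Rpl3l.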

Other observations

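Among the members not named above, Rpl7a varied most between Bach2WT mice, with a coefficient of variation of 36.1% in its level, against a median of 17.1% over the Rpl genes at 1 FPKM or more. In Bach2KO mice the coefficient of Rpl7a was 36.0%, against a median of 12.9% over the same Rpl genes. The spread between mice was larger in Bach2WT than in Bach2KO mice for 29 of 47 Rpl and 22 of 32 Rps genes at that level. The same count over all genes was not made, so it is not known whether this is particular to the members.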
